A study of Mus musculus with 8 samples.

Results

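The Msx, Alx and Prrx genes encode homeodomain transcription factors of embryonic mesenchyme: 6 genes (Msx1, Msx2, Alx1, Alx4, Prrx1 and Prrx2) were described across 8 libraries of embryonic mouse stomach. They were found by gene name among 26747 assembled loci, where they held 7 loci because Msx1 was listed at 2. The 6 genes were picked with the difference between the genotypes already known, so their fold changes are given as a description, with no test. Messenger RNA had been profiled from whole stomachs at E13.5 of gestation in 4 libraries of the genotype Nkx3.2Cre;R26-YAP5SA, called YAP5SA here, and 4 libraries of wild type embryos. In YAP5SA embryos, Cre recombinase from the Nkx3-2 gene, a gene of the stomach mesenchyme, allows the Rosa26 locus to make a mutant form of the coactivator YAP that escapes inhibition by the Hippo kinases. No library carried Cre without YAP5SA, so the effects of the 2 alleles cannot be told apart. The libraries held 7152526 to 8353242 fragments at named loci in YAP5SA and 6204932 to 6783555 in wild type.

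Homeodomain proteins bind short AT-rich DNA sites. Msx1 and Msx2 act mainly as repressors, are classical targets of bone morphogenetic protein (BMP) signalling, and are needed for tooth, palate, skull and limb development. Alx1 and Alx4 belong to the paired-related class and pattern the face, the skull vault and the front-to-back axis of the limb. Prrx1 and Prrx2, of the same broad class, mark limb and craniofacial mesenchyme and act partly in place of each other in skeletal development. The 6 genes are known as markers of limb and head rather than of gut mesenchyme, although BMP signalling is active in the stomach wall too.

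All 6 genes had a higher mean in YAP5SA stomachs, by very unequal amounts. Alx1 was close to undetected in wild type and present in every YAP5SA library, Msx1 was 7.54-fold higher, Prrx2 was 2.26-fold higher, and Msx2, Alx4 and Prrx1 were 1.44-fold, 1.42-fold and 1.27-fold higher (ratios of mean CPM, the fragments of a gene scaled to library size). The YAP5SA libraries lay above all wild type libraries for Msx1, Alx1, Alx4 and Prrx2, and the genotypes overlapped for Msx2 and Prrx1. Of the 6 member loci that passed the filter on low counts, 4 did not overlap in this way, beside 10.9% of all 14574 tested loci. The members were chosen on this contrast, so nothing is read from this count. Alx1, with 3 fragments over the wild type libraries, passed the filter through the YAP5SA libraries alone. In whole stomachs, more cells of a type and more RNA per cell cannot be told apart.

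**Figure D1:**
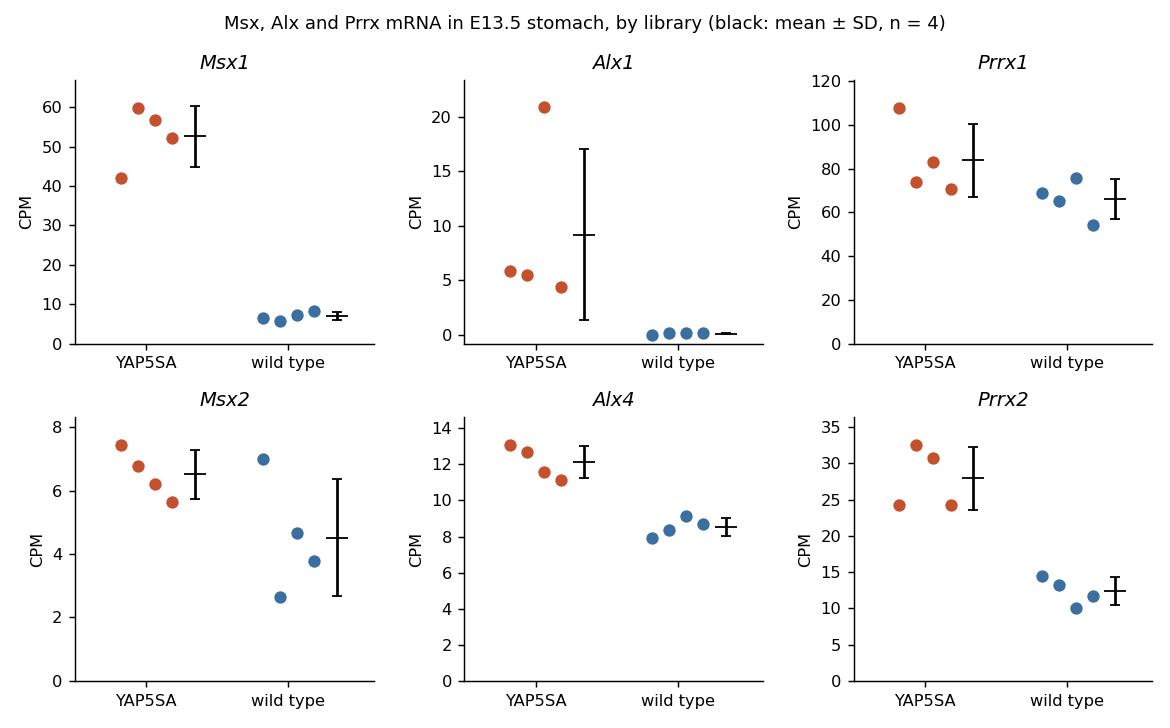
Level of each gene in every library in CPM, with the 4 YAP5SA libraries in red left of the 4 wild type libraries in blue. The black bar is the mean with its SD. Msx1, Alx1, Alx4 and Prrx2 do not overlap between the genotypes, Alx1 has 1 YAP5SA library at 20.9 CPM, and Msx2 and Prrx1 overlap.

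Msx1 (locus XLOC_018271, chromosome 5, 37820491 to 37824585, minus strand, mm10; protein-coding) was at 42.0, 59.8, 56.7 and 52.2 CPM in YAP5SA replicates 1 to 4, against 6.51, 5.73, 7.35 and 8.37 CPM in wild type replicates 1 to 4. The lowest YAP5SA library thus stood far above the highest wild type library. The means were 52.7 ± 7.75 CPM in YAP5SA and 6.99 ± 1.13 CPM in wild type (SD, n = 4 each), a log2 fold change of 2.91 ± 0.15 (SE). In FPKM, which scales fragments by transcript length as well as depth, its level was 30.1 ± 4.37 FPKM in YAP5SA and 3.95 ± 0.66 FPKM in wild type.

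The Msx1 coordinates carried 3 assembled loci that shared their fragments. Besides XLOC_018271, the table holds a second locus named Msx1 (XLOC_017605) and one named Msx1as (XLOC_017604), an antisense RNA of Msx1. In each library the 3 fragment values added up to a whole number within 0.0005, at 456, 512, 496 and 502 fragments in YAP5SA and 45, 48, 49 and 69 fragments in wild type, while single loci held fractions. The main Msx1 locus took 77.0% to 84.6% of the sum in YAP5SA and 77.0% to nearly all of it in wild type. The numbering of loci follows the strand: of the 20 nearest-numbered loci with a GENCODE strand, 20 were on the minus strand for XLOC_018271, 20 on the plus strand for XLOC_017605 and 19 on the plus strand for XLOC_017604. The sources do not state whether strand was used in counting, so Msx1 and Msx1as cannot be told apart by these values, and Msx1as, with 327 fragments over the YAP5SA libraries and 24.0 over the wild type libraries, is not a separate result here. The second Msx1 locus held 46.3 fragments over the YAP5SA libraries and 5.52 over the wild type libraries and did not pass the filter. Summed over the 3 loci, the level was 64.9 ± 7.07 CPM in YAP5SA and 8.11 ± 1.86 CPM in wild type (SD, n = 4 each), and the log2 fold change of the sum was 3.00.

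**Figure D2:**
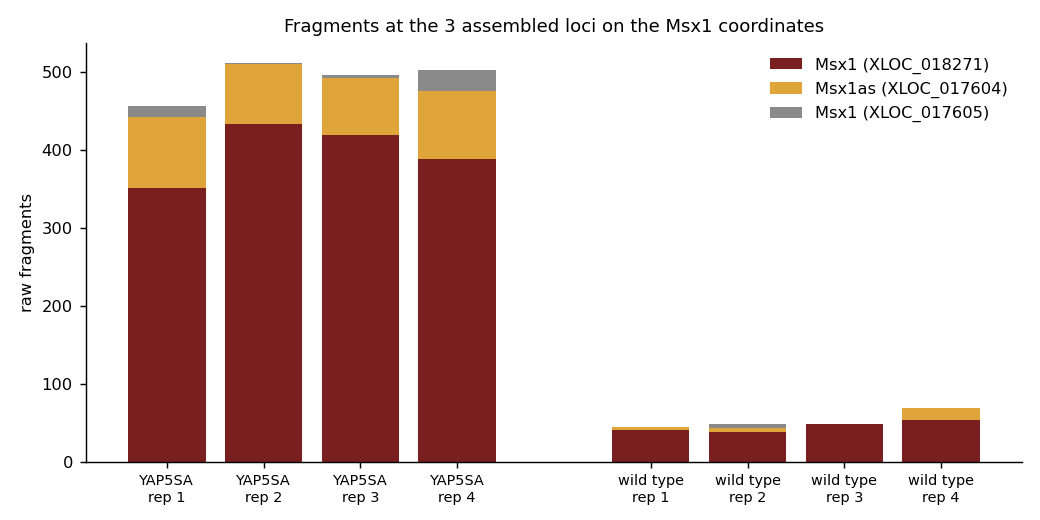
Raw fragments of the 3 assembled loci on the Msx1 coordinates, stacked for each library, with YAP5SA on the left and wild type on the right. The sums run from 456 to 512 in YAP5SA and from 45 to 69 in wild type, and the part given to Msx1as and to the second Msx1 locus varies between libraries.

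Msx2 (XLOC_006231, chromosome 13, 53466881 to 53472780, minus strand, mm10; protein-coding), the paralogue of Msx1 and another BMP target, was at 7.43, 6.77, 6.21 and 5.63 CPM in YAP5SA, against 6.99, 2.65, 4.65 and 3.79 CPM in wild type. Wild type replicate 1 stood above YAP5SA replicates 2, 3 and 4, and the other 3 wild type libraries lay below every YAP5SA library. The log2 fold change was 0.53 ± 0.29 (SE), and 0.83 without wild type replicate 1. The 2 paralogues thus parted: the ratio of Msx1 to Msx2 in FPKM was 6.43 to 10.5 in YAP5SA libraries and 1.05 to 2.51 in wild type libraries.

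Alx1 (XLOC_002437, chromosome 10, 103007847 to 103028777, minus strand, mm10; protein-coding) is required for the midface and skull base. It held 49, 40, 155 and 33 fragments in YAP5SA replicates 1 to 4, against 0, 1, 1 and 1 fragments in wild type. In CPM the YAP5SA libraries were at 5.87, 5.53, 20.9 and 4.43 and the wild type libraries at 0 to 0.158. The ratio of 277 to 3 fragments, scaled to library size, was 79.1, with an exact 95% counting interval of 26.8 to 386 that covers counting error only. Without YAP5SA replicate 3 the ratio was 46.1 (15.4 to 226), so that this library carries much of its size, and every other YAP5SA library still held at least 33 fragments. YAP5SA replicate 3 also had the highest summed skeletal muscle markers (51.4 CPM, beside 17.7, 25.0 and 42.4 CPM in replicates 1, 2 and 4). Most of that sum came from Myod1, a determination factor of skeletal muscle (17.7 CPM, beside 2.28, 8.15 and 10.2 CPM), and Myog (16.2 CPM). Of the other tested markers, Actn3 was highest there too (4.86 CPM). Mylpf was higher in replicate 4 (9.93 CPM, beside 9.44 CPM), and Tnnt3 was lowest in replicate 3 (2.83 CPM). Replicate 4, second in the sum of muscle markers, had the lowest Alx1 of the YAP5SA libraries. In YAP5SA replicate 3 the summed cartilage markers were at 453 CPM, beside 396, 378 and 466 CPM in replicates 1, 2 and 4. Of the tested cartilage genes, Col2a1 (143 CPM) and Sox5 (41.0 CPM) were highest in replicate 3. Sox9 (40.6 CPM), Matn3 (6.88 CPM) and Col9a1 (21.6 CPM) were lowest there. Sox10, which marks enteric glia and neural crest, was at 18.8 CPM in that library, within the 15.9 to 24.0 CPM of the YAP5SA group. The part of such cells in the Alx1 value was not tested.

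Alx4 (XLOC_012748, chromosome 2, 93642434 to 93681339, plus strand, mm10; protein-coding), which acts in front-to-back patterning of the limb, was the least variable of the 6 genes. It was at 13.1, 12.7, 11.6 and 11.1 CPM in YAP5SA, against 7.94, 8.38, 9.15 and 8.69 CPM in wild type. The 2 ranges do not meet, although the gap between the lowest YAP5SA and the highest wild type library is small. The means were 12.1 ± 0.91 CPM in YAP5SA and 8.54 ± 0.51 CPM in wild type (SD, n = 4 each), a log2 fold change of 0.51 ± 0.15 (SE). In FPKM, Alx1 stood at 0.869 to 3.94 times Alx4 in YAP5SA libraries and at 0 to 0.0397 times Alx4 in wild type libraries.

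Prrx1 (XLOC_001128, chromosome 1, 163245119 to 163313650, minus strand, mm10; protein-coding), a regulator of limb and craniofacial mesenchyme, had the highest CPM of the group in both genotypes. It was at 108, 73.9, 83.1 and 70.4 CPM in YAP5SA, against 69.0, 65.0, 75.9 and 54.0 CPM in wild type. Wild type replicate 3 lay above YAP5SA replicates 2 and 4, and YAP5SA replicate 1 stood apart from the rest. The log2 fold change was 0.35 ± 0.14 (SE), and 0.21 without YAP5SA replicate 1.

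Prrx2 (XLOC_012432, chromosome 2, 30845033 to 30882117, plus strand, mm10; protein-coding), the close relative of Prrx1, was at 24.2, 32.5, 30.8 and 24.3 CPM in YAP5SA, against 14.5, 13.2, 10.05 and 11.7 CPM in wild type. Every YAP5SA library was well above every wild type library. The means were 27.9 ± 4.32 CPM in YAP5SA and 12.4 ± 1.91 CPM in wild type (SD, n = 4 each), a log2 fold change of 1.18 ± 0.15 (SE). In FPKM the ratio of Prrx2 to Prrx1 was 0.964 to 1.86 in YAP5SA libraries and 0.576 to 0.918 in wild type libraries, with no overlap.

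The order of the 6 genes by level per length differed between the genotypes. In YAP5SA the means were 30.1 FPKM for Msx1, 26.0 for Prrx2, 18.7 for Prrx1, 3.95 for Alx1, 3.28 for Msx2 and 2.39 for Alx4. In that order the ranges of Msx1 and Prrx2, of Prrx2 and Prrx1, and of Alx1 and Msx2 overlapped. Those of Prrx1 and Alx1 and of Msx2 and Alx4 did not. The place of Alx1 in that order rests on YAP5SA replicate 3, the only library where Alx1 stood above Msx2 or Alx4. In YAP5SA replicates 1, 2 and 4 Alx1 was the lowest of the 6 genes, at no more than 2.53 FPKM and close to Alx4. In wild type the means were 14.6 FPKM for Prrx1, 11.7 for Prrx2, 3.95 for Msx1, 2.26 for Msx2, 1.67 for Alx4 and 0.0485 for Alx1. There the ranges of Prrx1 and Prrx2, of Msx1 and Msx2, and of Msx2 and Alx4 overlapped, while Msx1 lay below Prrx2 and Alx1 below Alx4. Within the 4 wild type libraries, Prrx1 stood above Prrx2 in 4, Msx1 above Msx2 in 4 and Msx2 above Alx4 in 3. Summed over the 6 genes, the level was 84.3 ± 8.62 FPKM in YAP5SA and 34.1 ± 2.86 FPKM in wild type (SD, n = 4 each). Msx1 made up 30.0% to 40.0% of that sum in YAP5SA and 9.66% to 15.2% in wild type, and Prrx1 made up 18.4% to 30.0% in YAP5SA and 38.4% to 48.2% in wild type. With fragments divided by the exon length in GENCODE, Alx1 came last in YAP5SA, and Prrx2 came before Prrx1 in wild type.

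**Figure D3:**
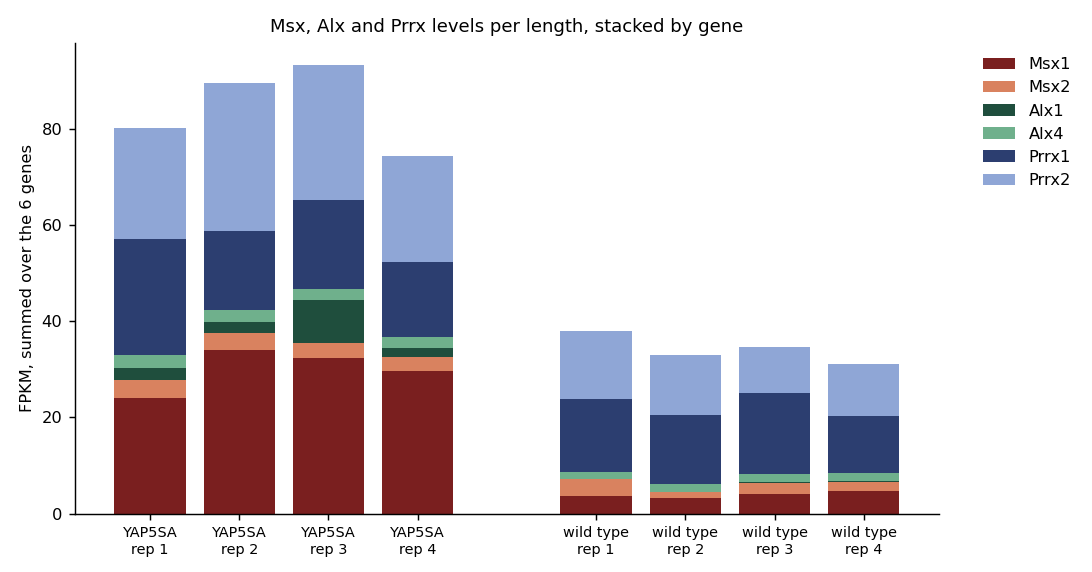
Level per length in FPKM of the 6 genes, stacked for each library, with YAP5SA on the left and wild type on the right. The sum averages 84.3 FPKM in YAP5SA and 34.1 FPKM in wild type, and Msx1 takes the largest part of the added height.

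Promoter windows are shown as sequence context for the genes, because YAP acts on DNA through TEAD factors and homeodomain proteins bind the sites named here. RefSeq promoters (GRCm38.p6) were matched for 4 of the 6 genes, Msx1, Msx2, Prrx1 and Prrx2. The 250 bases before each start were searched on both strands for GGAATG, the core of TEAD sites, for TAATTA, a homeodomain core, for TAAT and ATTA with any 3 bases between them, a site of paired-class dimers, and for GGCGCC, a GC-rich Smad sequence. The sequences below run 5′ to 3′ on the strand of the gene, with matches in capitals. They are the whole window of Msx1 (chr5:37824586-37824835), the part of the Prrx1 window upstream of every GENCODE start (chr1:163313711-163313900), and a short stretch round the match of Msx2 (chr13:53472952-53472977), each on the minus strand.
Msx1: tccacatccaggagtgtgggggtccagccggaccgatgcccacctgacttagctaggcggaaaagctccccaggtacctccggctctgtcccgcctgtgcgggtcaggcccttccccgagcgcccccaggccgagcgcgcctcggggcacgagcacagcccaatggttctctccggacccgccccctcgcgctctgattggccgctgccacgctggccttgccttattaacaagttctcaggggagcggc
Prrx1: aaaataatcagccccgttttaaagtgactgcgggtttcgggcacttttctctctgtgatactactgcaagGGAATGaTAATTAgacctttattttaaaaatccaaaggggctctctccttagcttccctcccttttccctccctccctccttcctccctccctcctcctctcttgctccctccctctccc
Msx2: actgctcctgTAATTAactcctaatt
Prrx1 held GGAATG with its first base at −180 and TAATTA at −173 from the RefSeq start, which do not overlap. Msx2 held TAATTA at −187, in a window that lies wholly within a GENCODE exon. The windows of Msx1 and Prrx2 held none of the 4 sequences, and that of Prrx2, like that of Msx2, lies wholly within GENCODE exons. Of 32851 promoter windows in the table, 12.6% held GGAATG, 4.84% TAATTA, 0.463% the paired-class site and 9.59% GGCGCC. These matches are letters only and say nothing of binding.

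Msx3, the remaining Msx paralogue, was at the limit of detection, with 0 fragments in YAP5SA and 2 fragments in wild type, in replicate 4, and did not pass the filter.

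Other homeobox genes of limb and head mesenchyme went both ways. Of 31 listed genes, 21 were tested, and 4 were higher and 5 lower in YAP5SA, with a median log2 fold change of −0.096 beside −0.0056 over all tested loci. Over all 14574 tested loci, 18.9% passed an adjusted p of 0.05 in edgeR's quasi-likelihood test, 9.06% higher and 9.85% lower, and the counts of each list stand beside these shares with no test of the list. Lhx2, a LIM homeobox gene of limb outgrowth, was at 29.9, 25.4, 24.6 and 23.2 CPM in YAP5SA, against 1.43, 2.50, 1.80 and 2.21 CPM in wild type (log2 fold change 3.68 ± 0.19, edgeR adjusted p = 4.8e-06). Its lowest YAP5SA library was thus far above every wild type library. Emx2, known from the urogenital tract and shoulder girdle, rose by 1.27 ± 0.29 and Lhx6, of oral mesenchyme, by 0.95 ± 0.18. The falls were in Dlx1 (−1.32 ± 0.13), Dlx2 (−1.18 ± 0.18), Six2 (−0.84 ± 0.11), Meox2 (−0.70 ± 0.12, named because the count is small) and Pitx1 (−0.63 ± 0.08). Dlx1 and Dlx2 pattern the jaw arches and also forebrain neurons, and summed markers of enteric neurons were at 271 to 350 CPM in YAP5SA and 523 to 625 CPM in wild type. The part of neurons in the Dlx values was not tested. Pitx1 and Six2 are also on the list of stomach mesenchyme markers.

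Among other transcription factors of limb and head mesenchyme, 22 of 27 were tested, and 9 were higher and 2 lower, beside 9.06% higher and 9.85% lower over all tested loci, with a median log2 fold change of −0.0032. The higher gene Runx2, a bone determination factor, did not pass under the replicate block (edgeR adjusted p = 0.052). Foxd1, a forkhead factor of kidney stroma and craniofacial mesenchyme, was at 15.6, 12.2, 8.63 and 7.65 CPM in YAP5SA, against 0.477, 0, 0.15 and 0.158 CPM in wild type. That is 339 fragments in YAP5SA and 5 in wild type, so the gene passed the filter on low counts through the YAP5SA libraries alone. The ratio scaled to library size was 58.1 (exact 95% counting interval 24.7 to 180), and 110 (30.3 to 914) without wild type replicate 1, which held 3 of the 5 fragments. Foxc2, which acts in skeletal and vessel development, rose by 1.72 ± 0.31, Tbx2, a T-box repressor of limb and heart, by 0.91 ± 0.09 and Snai1, a regulator of epithelial-to-mesenchymal transition, by 0.89 ± 0.12. The general mesenchymal factor Snai2 fell by 0.34 ± 0.08 and the limb and stem cell factor Sall4 by 0.94 ± 0.24. Without YAP5SA replicate 2 or wild type replicate 2 neither passed, which left 0 falls (adjusted p 0.051 to 0.0996 over the edgeR and limma settings that lost a call).

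BMP signals reach the nucleus through receptor kinases and Smad proteins, and Msx genes are among their direct outputs. Of 7 tested ligand genes, 2 rose and 1 fell, beside 9.06% higher and 9.85% lower over all tested loci. Their median log2 fold change was 0.31. Gdf6, a ligand of joints and skull sutures, was at 89.1, 123, 118 and 123 CPM in YAP5SA, against 32.7, 44.7, 48.9 and 29.2 CPM in wild type, a log2 fold change of 1.54 ± 0.16 (edgeR adjusted p = 0.00019). Bmp4, the main mesenchymal ligand of the gut, rose by 0.50 ± 0.09 to 85.5 ± 9.04 CPM in YAP5SA, against 60.5 ± 5.77 CPM in wild type. Bmp5 fell by 1.04 ± 0.15 to 16.5 ± 3.43 CPM in YAP5SA, against 34.03 ± 3.95 CPM in wild type. Bmp2 stood at 20.1 ± 7.61 CPM in YAP5SA and 10.7 ± 3.10 CPM in wild type (edgeR adjusted p = 0.053). With the replicate number as a block, 4 ligand genes rose, Bmp2 (edgeR adjusted p = 0.0037) and Bmp6 (edgeR adjusted p = 0.015) being added.

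Of 10 receptor and Smad genes, 1 rose and 1 fell, a share close to the 18.9% called over all tested loci and thus no result about these genes as a group, with a median log2 fold change of 0.051. Smad9, a BMP-responsive Smad, rose by 0.67 ± 0.12. The receptor gene Bmpr1b fell by 0.56 ± 0.17, a call lost under the block (edgeR adjusted p = 0.065), with each of 6 libraries left out (YAP5SA replicates 2, 3 and 4 and wild type replicates 2, 3 and 4) and in other settings (adjusted p 0.062 to 0.11 over these edgeR and limma fits). Of 15 antagonist and feedback genes, 5 rose and 2 fell, beside 9.06% higher and 9.85% lower over all tested loci. Their median log2 fold change was −0.048. Nog, a secreted BMP antagonist, was at 37.2 ± 6.71 CPM in YAP5SA and 9.42 ± 1.48 CPM in wild type (SD, n = 4 each; log2 fold change 1.98 ± 0.16, edgeR adjusted p = 6.7e-05). The inhibitory Smad genes Smad7 and Smad6 rose by 0.78 ± 0.08 and 0.56 ± 0.06, the pseudoreceptor gene Bambi by 0.27 ± 0.07 and Id2, a helix-loop-helix target named because the count is small, by 0.20 ± 0.06. The call of Id2 was lost under the replicate block (edgeR adjusted p = 0.066). Bambi lost its call without wild type replicate 4 and in both FPKM fits (edgeR and limma adjusted p 0.056 to 0.058), and without that library 3 genes of the list rose. Secreted antagonists also fell, Fst by 0.66 ± 0.11 and Chrdl1 by 0.65 ± 0.13. Id1 and Id3, the usual readouts of BMP signalling, were at 69.3 ± 5.89 and 81.2 ± 6.74 CPM in YAP5SA and 60.9 ± 3.55 and 77.0 ± 5.72 CPM in wild type, and neither passed (edgeR adjusted p = 0.11 and 0.56). With libraries scaled to general mesenchymal genes, Id1 passed (log2 fold change 0.31, edgeR adjusted p = 0.017).

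**Figure D4:**
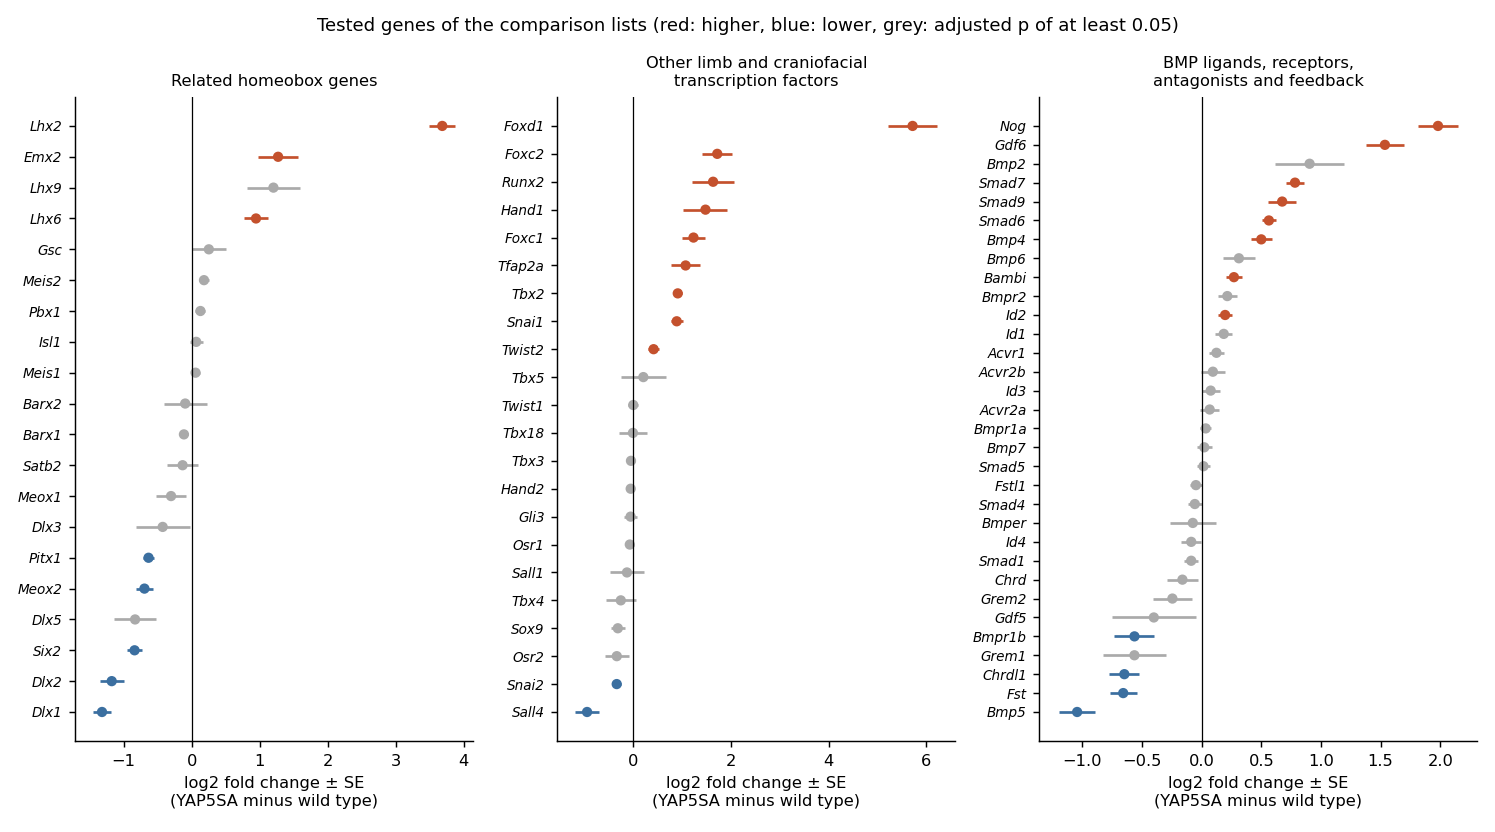
Log2 fold change (YAP5SA minus wild type) with its SE for tested genes of the comparison lists, red where higher, blue where lower and grey where the adjusted p was at least 0.05. Lhx2, Foxd1 (fitted over 5 wild type fragments), Nog and Gdf6 stand at the top of their panels, and each panel holds genes on both sides of 0.

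The loci whose profile over the 8 libraries was most like that of each gene were picked by the Pearson correlation of log2 CPM, which carries the genotype difference and is a description. For Msx1 they were Irf5, an interferon regulatory factor (r = 0.997), the fibrillar collagen gene Col24a1 (r = 0.993) and the kinase gene Prkci (r = 0.991). Col24a1 stood at 83.2 ± 3.45 CPM in YAP5SA and 27.6 ± 3.24 CPM in wild type. For Msx2 they were Tyk2, Slc41a3 and the chemokine gene Cxcl16 (r = 0.951 to 0.964). For Alx1 they were the kainate receptor gene Grik1 (r = 0.991), Rps27 and Smap1, and Grik1 too was highest in YAP5SA replicate 3, at 43.6 CPM beside 30.9, 31.1 and 32.6 CPM in replicates 1, 2 and 4. For Alx4 they were Rin1, Tmtc4 and Crim1, a modulator of BMP ligands (r = 0.989 to 0.990). For Prrx1 they were the leukocyte genes Ikzf1 (r = 0.979) and Dock2 (r = 0.977) and the receptor gene Gpr126 (r = 0.975). Summed macrophage markers were at 468 to 672 CPM in YAP5SA and 266 to 368 CPM in wild type, and their part in the Prrx1 value was not tested. For Prrx2 they were Tbx2 (r = 0.980), St3gal5 (r = 0.980) and Lhx6 (r = 0.978), of which Tbx2 and Lhx6 are also on the lists above.

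The labelled tissue was checked against markers. All 9 genes of stomach mesenchyme identity were detected. Of these, 5 were lower and 1 higher in YAP5SA, beside 9.85% lower and 9.06% higher over all tested loci. Their median log2 fold change was −0.63. Barx1, a regulator of stomach fate, did not pass (edgeR adjusted p = 0.28). It was at 158 ± 14.2 CPM in YAP5SA and 171 ± 7.64 CPM in wild type. The sum of the 9 genes was 617 to 710 CPM in YAP5SA and 825 to 894 CPM in wild type. The sum of 10 general mesenchymal genes was 3335 to 3687 CPM in YAP5SA and 3675 to 4027 CPM in wild type. Summed epithelial markers (14 of 15 with a locus) were at 525 to 771 CPM in YAP5SA and 1049 to 1255 CPM in wild type, and glial and neural crest markers (8 of 9) at 172 to 225 CPM in YAP5SA and 329 to 368 CPM in wild type. Skeletal muscle markers (8 of 10) summed to 17.7 to 51.4 CPM in YAP5SA and 10.4 to 21.8 CPM in wild type, and cartilage markers (10 of 10) to 378 to 466 CPM in YAP5SA and 327 to 381 CPM in wild type. No marker with a locus was at 0 in all libraries. The part of these cell types in the differences of the homeobox genes was not tested. When libraries were scaled to the general mesenchymal genes in place of all genes, the log2 fold changes of Msx1, Msx2, Alx4, Prrx1 and Prrx2 were 3.04, 0.66, 0.64, 0.48 and 1.30, on a scale where the median of all loci lay at 0.12.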

How the data were processed

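Per the labels' protocols, frozen stomachs gave Trizol RNA for TruSeq RNA libraries. The tools named, per the submitters' processing notes, are TopHat2 2.0.9, Cufflinks 2.2.1 and Cuffdiff, on mm10. Strand settings and read filters: not given in the sources used here. As the columns are named in the file headers, the authors deposited raw fragments per locus and library, which are estimated counts (10.6% to 11.0% of values per library were not whole within 1e-06), and FPKM scaled by the authors. The authors' deposited group FPKM table supplied gene names, and its values for the 6 genes equalled the means of the 4 libraries to the digits deposited. The deposited table numbers libraries of a genotype from 0 and the labels from 1, so replicate numbers here are those of the table plus 1. Locus starts, which count from 0, were written from 1.

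Counts were rounded to whole numbers, and the 3582 loci without a name (1.85% to 1.97% of fragments) were left out. edgeR 4.0.16 in R 4.3.3 was run with its quasi-likelihood test, robust estimation, TMM factors and filterByExpr (10 fragments in enough libraries, 15 in total), with genotype as the only term. That left 14574 loci, over which p-values were adjusted by Benjamini-Hochberg, two-sided at 0.05. Each log2 fold change has YAP5SA on top. The test was checked on simulated data. CPM values use the TMM-scaled library sizes. Whether each library is its own embryo or a pool is not in the labels, and p-values therefore cover only library-to-library spread, which may be technical. No pair of libraries agreed within counting error. Libraries with the same replicate number deviated together (correlations of 0.227, 0.145, 0.151 and 0.217 for numbers 1 to 4 over the tested loci), a pairing that comes from the data, since the labels name no shared litter or batch. The block was therefore run as an alternative.

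The members, gene lists and markers were chosen with earlier results of these data known. Genes named beside the members were up to 4 called rises and 4 called falls of each list with the smallest p and at least 2 CPM, and the 3 loci most correlated with each member on log2(CPM + 0.5). Id1, Id3, Bmp2, Bmp6, Meox2, Id2, Runx2, Myod1, Sox10, Barx1 and the other single muscle and cartilage markers were named after their values were seen. Gene types, strands and exon lengths came from GENCODE M21. Genes of the related homeobox list that the rule covers but the text does not name are not reported here, although the counts include them. A planned comparison of protein sequences was not run. Alternatives were other library-size factors, DESeq2 1.42.0, limma 3.58.1 (voom, and FPKM with a pseudocount of 0.1 or 1), other filters, the block, library sizes from general mesenchymal genes, each library left out, and, added after the data were seen, the Msx1 loci summed and the Foxd1 fragment ratio.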

Additional observations from a re-analysis of the deposited data

Results flagged for a closer look

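In 64 groups of 4 libraries, 4 held a library that stood apart from the other 3 by Dixon's criterion. Chance gives about 1 in 20 where values are continuous. Alx1 was at 20.9 CPM in YAP5SA replicate 3, the highest of that group. Alx1 was at 0.0 CPM in wild type replicate 1, where the other 3 wild type libraries had 1 fragment each. Counts of 0 or 1 fragment meet the criterion whenever 1 library differs from the rest, so nothing is read from this flag. The second Msx1 locus (XLOC_017605) was at 0.735 CPM in wild type replicate 2 and at 0 in the others after rounding of its shared fragments. With only 1 library above 0 the criterion is met at any value, so nothing is read from that flag either. Gdf6 was at 89.1 CPM in YAP5SA replicate 1, the lowest of that group.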

How the results depend on the processing

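No value of the homeobox genes or of the list genes that the naming rule covers changed sign in any setting that was run. The number of loci past the threshold was 2757, with 47.9% of them higher in YAP5SA, and 2032 to 2805 with 1 library left out. With libraries scaled to general mesenchymal genes it was 3626, with 74.2% higher, since that scaling moved the median of all loci to 0.12. With 1 library left out the log2 fold changes ran from 2.84 to 3.02 for Msx1, 0.35 to 0.83 for Msx2, 0.48 to 0.56 for Alx4, 0.21 to 0.44 for Prrx1 and 1.09 to 1.27 for Prrx2, and the Alx1 ratio from 46.1 to 92.3. FPKM with a pseudocount of 1 gave 2.65 for Msx1 and 0.34 for Alx4, and mesenchymal scaling 0.64 for Alx4. By GENCODE exon length, Alx1, Msx2 and Alx4 ranked 6, 4 and 5 in YAP5SA, and Prrx1 and Prrx2 ranked 2 and 1 in wild type. Mesenchymal scaling raised the related homeobox genes that were higher to 7, and the BMP ligands and the receptor and Smad genes that were higher to 4 each. It left 1 lower gene among the other transcription factors, as FPKM with a pseudocount of 0.1 did, and 0 lower receptor and Smad genes, as both FPKM fits, no filter and the replicate block did. The replicate block gave 4 higher BMP ligands, 0 lower receptor and Smad genes and 3035 loci in all, and moved no other list count by more than 1.5 times. Of the list genes named, Bmpr1b, Id2 and Runx2 lost their call under it. With 1 library left out, higher and lower genes numbered 3 to 6 and 5 of the related homeobox list, 6 to 8 and 0 to 2 of the other transcription factors, 2 to 3 and 1 of the ligands, 1 to 2 and 0 to 1 of the receptors and Smads, and 3 to 6 and 2 of the antagonists. Of 25 such list genes, 5 lost their call in some setting, in 30 of 450 gene and setting pairs. The causes were not tested. The Alx1 ratio was computed for library-size factors and left-out libraries only. The 3 wild type fragments of Alx1 leave its ratio a wide interval.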
